A study of Mus musculus with 4 samples.

Results

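The comparison described here sets the white adipose tissue of high fat fed founder (F0) mice against that of chow fed mice. The mice were female C57BL/6, an inbred laboratory strain, and 9 months old. The chow group ate normal chow and the F0 group a high fat diet with 60% of its energy as fat, and the labels give 9 months of feeding for both. No transgene, gene deletion or drug is named for either group. Each group was 1 Illumina mouse bead array, a slide on which beads carrying gene probes capture labelled RNA. RNA of 3 samples was pooled for the chow array and RNA of 4 for the F0 array, and the labels name neither the fat depot nor whether separate animals gave the pooled samples. Arrays of 2 further high fat generations, F1 and F2, entered the normalization and are shown beside the F0 values in places. The genes described are those with a probe detected on the chow or the F0 array (detection p below 0.01, judged against negative control beads). They number 10801 of the 11384 genes detected on any of the 4 arrays and of 19057 with a named probe.

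White adipose tissue stores energy as triglyceride in large, single-droplet adipocytes, which take up fatty acids from lipoproteins, can make fatty acids from glucose, and release them again by lipolysis. Adipocytes also secrete hormones such as leptin and adiponectin. The tissue further holds macrophages, other leukocytes, progenitor cells, blood and lymph vessels and nerves, and visceral depots are covered by mesothelium. Long feeding on a fat-rich diet is known for enlarging adipocytes and for drawing in macrophages that surround dying adipocytes and take up their lipid.

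On the chow array 39.8% of 45281 probes were detected and on the F0 array 38.5%, and the lowest detected log2 signals were 4.82 and 4.89. With 1 array a group, no difference below has a replicate check or a test, and precision is limited by the number of arrays, so all are described by size. The 1 technical gauge is the agreement of different probes of a gene: over 3234 genes with several probes detected on both arrays, probes of the same gene had log2 differences that varied with an SD of 0.28. Where the brightest of these probes differed at least 2-fold, the next had the same sign in 324 of 336 genes. Across genes the 2 arrays correlated at r = 0.927, and genes are not independent replicates. Best detection p-values between 0.005 and 0.01 put 319 genes just inside the selection, and values between 0.01 and 0.015 left 200 just outside.

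A gene was counted as higher or lower where its brightest probe differed at least 2-fold (1 on the log2 scale) and the brighter array detected it. On the F0 array 763 genes were at least 2-fold higher (7.06% of the 10801) and 758 at least 2-fold lower (7.02%), together 14.1%. Scaling the arrays to a common median over all probes moved that split to 620 higher and 955 lower, and the median over all genes from -0.02 to -0.13. At 4-fold 147 genes were higher and 202 lower, and at 8-fold 29 and 50. At 1.5-fold the counts were 1701 (15.7%) and 1746 (16.2%). The arrays were within 1.2-fold for 3969 genes, or 36.7%. Of the higher genes 145 were detected on the F0 array alone and of the lower ones 236 on the chow array alone. For these the fold is given as "at least", taken over the dimmest signal that the other array detected, or over the gene's own signal there if that was higher. At that bound 721 genes were still 2-fold higher and 682 lower. Across 8 alternative ways of processing and the one reported, 384 genes were at least 2-fold higher every time and 340 lower.

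**Figure D1:**
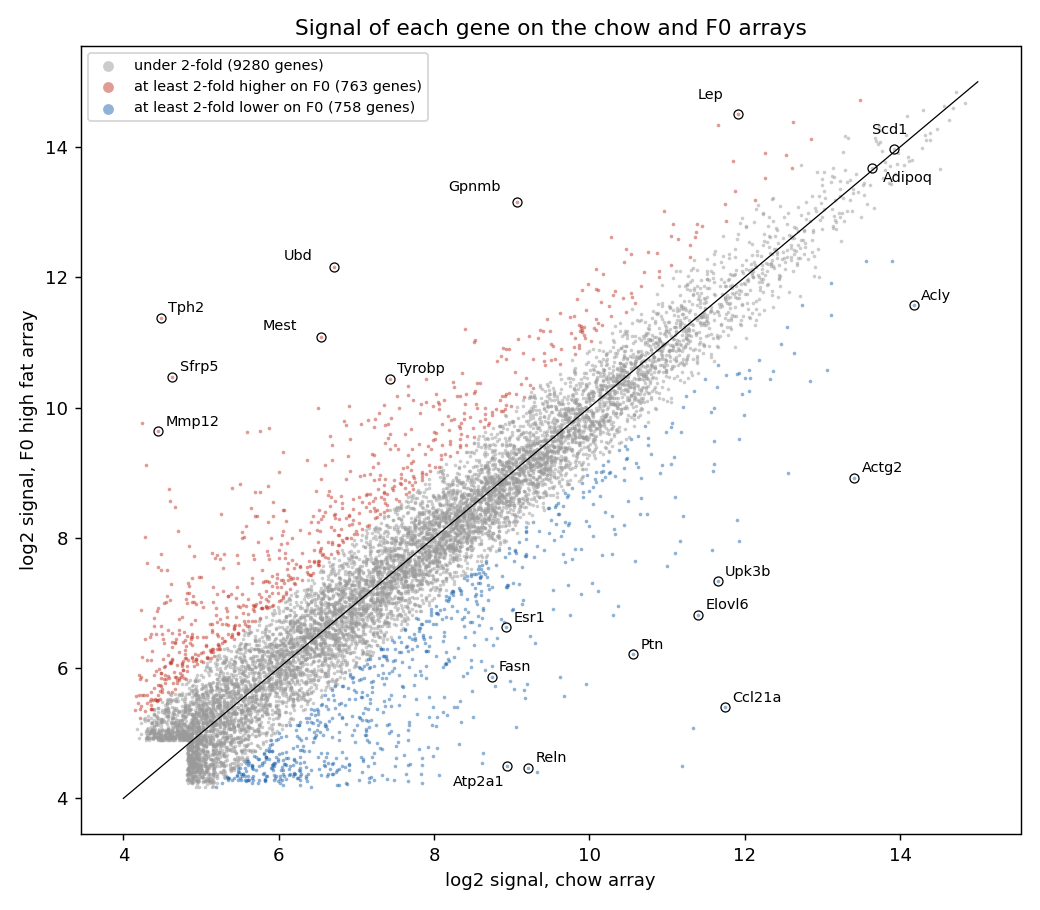
Log2 signal of each of the 10801 genes on the chow array (horizontal) and on the F0 array (vertical), 1 point a gene, with the line of equal signal. The 763 red genes lie at least 2-fold above the line and the 758 blue ones at least 2-fold below it, and the labelled genes are named in the text.

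For orientation 62 gene lists with 1655 genes were used, of which 1507 had a named probe and 1164 were detected on either array. List counts refer to these detected members, which is a choice that favours genes high on 1 of the arrays, so the counts and medians describe the lists and test nothing. Each list count is to be read beside the 7.06% higher and 7.02% lower over all genes. In total RNA of a whole tissue, fewer cells of a type and less RNA per cell cannot be told apart.

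The 17 detected adipocyte genes were detected on both arrays, and all but leptin were within 2-fold. Of these 1 was higher and 0 were lower, with a median log2 difference of 0.06. Adipoq, which encodes the hormone adiponectin, had a log2 signal of 13.64 on chow and 13.68 on F0. Plin1, the coat protein of the adipocyte lipid droplet, lay at 9.24 on chow and 9.62 on F0, and Cidec, which fuses droplets, at 13.15 on chow and 13.54 on F0. The tissue label thus met its marker genes on both arrays. Pparg, the master transcription factor of adipocytes, differed by -0.09 on the log2 scale, Lpl, the lipoprotein lipase, by 0.06, and Retn, which encodes resistin, by -0.08. Slc2a4, the insulin-responsive glucose transporter, was at 9.24 on chow and 8.52 on F0, a difference of -0.72. The probe for Fabp4, an abundant lipid chaperone of adipocytes, was dim at 5.62 on chow and 6.37 on F0, so it says little of that gene. Lep, the hormone that signals fat mass, stood apart at 11.91 on chow and 14.51 on F0 (6.05-fold higher).

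Genes that make new fatty acids were the main metabolic group below chow. Of 14 detected genes of de novo fatty acid synthesis 9 were at least 2-fold lower and 0 higher, with a median of -1.29, against 7.02% lower and a median of -0.02 over all genes. The lower members stood at several steps of the route, and the carboxylase gene Acaca was not among the detected members. Acly, which makes cytosolic acetyl-CoA from citrate, had a log2 signal of 14.18 on chow and 11.57 on F0 (6.13-fold lower). Acss2, which makes it from acetate, was 3.50-fold lower and Acacb, an acetyl-CoA carboxylase, 3.87-fold lower. Over the mean of the probes, the log2 differences of these last genes shrank to -1.13 and -1.22. Fasn, the synthase itself, lay at 8.74 on chow and 5.87 on F0 (7.31-fold lower). Of the enzymes that supply NADPH or its precursors, Me1, malic enzyme, was 2.52-fold lower and Tkt, transketolase of the pentose phosphate pathway, 2.80-fold lower. Mlxipl, which encodes the carbohydrate-sensing factor ChREBP, was 2.36-fold lower and Srebf1, the sterol and insulin responsive factor, 2.14-fold lower. Thrsp, a regulator of lipogenesis under those factors, lay at 12.84 on chow and 10.41 on F0 (5.37-fold lower). The 5 members within 2-fold included Slc25a1, the mitochondrial citrate carrier (-0.95 on the log2 scale), Mid1ip1 (-0.50), Idh1, which also supplies NADPH (0.24), and Slc25a10 (0.29).

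The promoters of Fasn and Thrsp are shown because their genes share this direction and both carry CCAAT boxes, the binding letters of the factor NF-Y, close to the start. The windows run from 250 bases before to 50 after the RefSeq start (build GRCm38.p6), written 5′ to 3′ along the gene, with CCAAT and its reverse ATTGG in capitals. Fasn lies on the minus strand at chr11:120824498-120824797 and Thrsp on the minus strand at chr7:97417501-97417800.
Fasn: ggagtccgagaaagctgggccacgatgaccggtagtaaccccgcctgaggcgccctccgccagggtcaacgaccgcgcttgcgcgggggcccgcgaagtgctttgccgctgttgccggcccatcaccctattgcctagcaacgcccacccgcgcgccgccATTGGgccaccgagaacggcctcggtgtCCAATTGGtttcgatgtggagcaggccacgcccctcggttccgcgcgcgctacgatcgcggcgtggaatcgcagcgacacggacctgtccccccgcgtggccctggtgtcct
Thrsp: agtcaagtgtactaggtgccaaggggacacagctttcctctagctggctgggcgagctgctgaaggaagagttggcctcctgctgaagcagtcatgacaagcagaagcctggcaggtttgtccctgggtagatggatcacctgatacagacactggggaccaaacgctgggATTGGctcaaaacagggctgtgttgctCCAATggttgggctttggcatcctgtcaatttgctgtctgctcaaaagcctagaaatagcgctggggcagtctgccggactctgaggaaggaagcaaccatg
In Fasn the marked letters begin 90, 62 and 59 bases before the start, the last pair sharing letters, and in Thrsp 79 and 52 bases before it. Searched on both strands, CCAAT stood in 9 of 14 windows of the synthesis list (64.3%), in 40.3% of the windows of lower genes, in 40.1% of those of higher genes and in 37.9% of all 27025 promoters. The sterol regulatory element TCACNCCAC was found in 1 of the 14, Mlxipl, and in 1.22% of all promoters. These matches are letters in a window, not measured binding.

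Chain elongation and desaturation divided. Of 10 detected members 3 were lower and 1 higher. Elovl6, which elongates palmitate to stearate, lay at 11.40 on chow and 6.82 on F0, a difference of -4.58 by its brightest probe and of -2.86 when its probes were averaged. Fads1, the delta-5 desaturase of polyunsaturated fatty acids, was 2.62-fold lower, and Fads2, the delta-6 desaturase, at least 2.59-fold lower. Scd1, the desaturase that makes oleate, differed by 0.06 and Scd2 by 0.50. Fads3, a related gene, lay at 9.86 on chow and 11.27 on F0 (2.64-fold higher).

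Storage and handling of fat that is already made showed fewer differences. Of 18 triglyceride assembly genes 1 was higher and 1 lower, with a median of -0.08 that ran from -0.14 to 0.05 over the processing alternatives. The lower one was Gpam, the first acyltransferase of glycerolipid synthesis (2.74-fold lower), and the higher one Aqp7, the glycerol channel of adipocytes (2.41-fold higher). Dgat2, which completes triglyceride, differed by -0.25. Among 13 lipid droplet genes Hilpda, an inhibitor of the lipase ATGL, lay at 8.26 on chow and 9.82 on F0 (2.94-fold higher) and Plin2, a droplet coat protein found in many cell types, at 9.41 on chow and 10.83 on F0 (2.69-fold higher). Cidea, a droplet protein prominent in brown fat, was the lower one (6.13-fold lower). Of 18 lipolysis genes 2 were higher and 1 lower: Npr3, the clearance receptor of natriuretic peptides, lay at 9.45 on chow and 11.36 on F0 (3.76-fold higher), Adcy3, an adenylyl cyclase, was 3.73-fold higher, and Hcar1, the anti-lipolytic lactate receptor, was 2.33-fold lower. The lipases themselves, Pnpla2 and Lipe, differed by 0.34 and 0.29. The genes of the beta-adrenergic receptors had no named probe and were not analysed here.

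Of 18 genes of fatty acid uptake 3 were higher and 0 lower: Slc27a1, a fatty acid transport protein (2.20-fold higher), Angptl4, a lipoprotein lipase inhibitor (2.08-fold higher, with a log2 difference of 0.56 averaged over its probes), and Cav2, a caveolar protein (2.03-fold higher). Fatty acid oxidation had 2 of 24 genes higher (8.33%), close to the 7.06% of all genes, with a median of 0.01. The 2 were the peroxisomal thiolase gene Acaa1b (2.75-fold higher) and Acadl, an acyl-CoA dehydrogenase (2.14-fold higher, with 0.86 averaged over its probes). Cholesterol synthesis and uptake had 3 of 21 higher, led by the sterol exporter gene Abcg1, at 6.28 on chow and 8.12 on F0 (3.56-fold higher). None of its 21 genes was lower.

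Of 26 genes of insulin signalling and glucose use 2 were higher (7.69%) and 3 lower (11.5%), shares close to the 7.06% and 7.02% of all genes, with a median of 0.08 that ran from -0.04 to 0.14 over the alternatives. Igf1r, the IGF1 receptor, was at 8.30 on chow and 6.88 on F0 (2.69-fold lower) and Pik3r1, the regulatory subunit of PI3 kinase, at 11.64 on chow and 10.31 on F0 (2.51-fold lower). Insr, the insulin receptor, lay just under the 2-fold mark at 10.47 on chow and 9.52 on F0 (-0.96 on the log2 scale), and so did its adaptor Grb10 (-0.96). Pdk4, the kinase that shuts pyruvate dehydrogenase, lay at 8.96 on chow and 10.90 on F0 (3.84-fold higher). Slc2a3, a glucose transporter, was 2.83-fold lower, and Irs1 and Irs2, the docking proteins of the receptor, differed by -0.26 and 0.74.

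**Figure D2:**
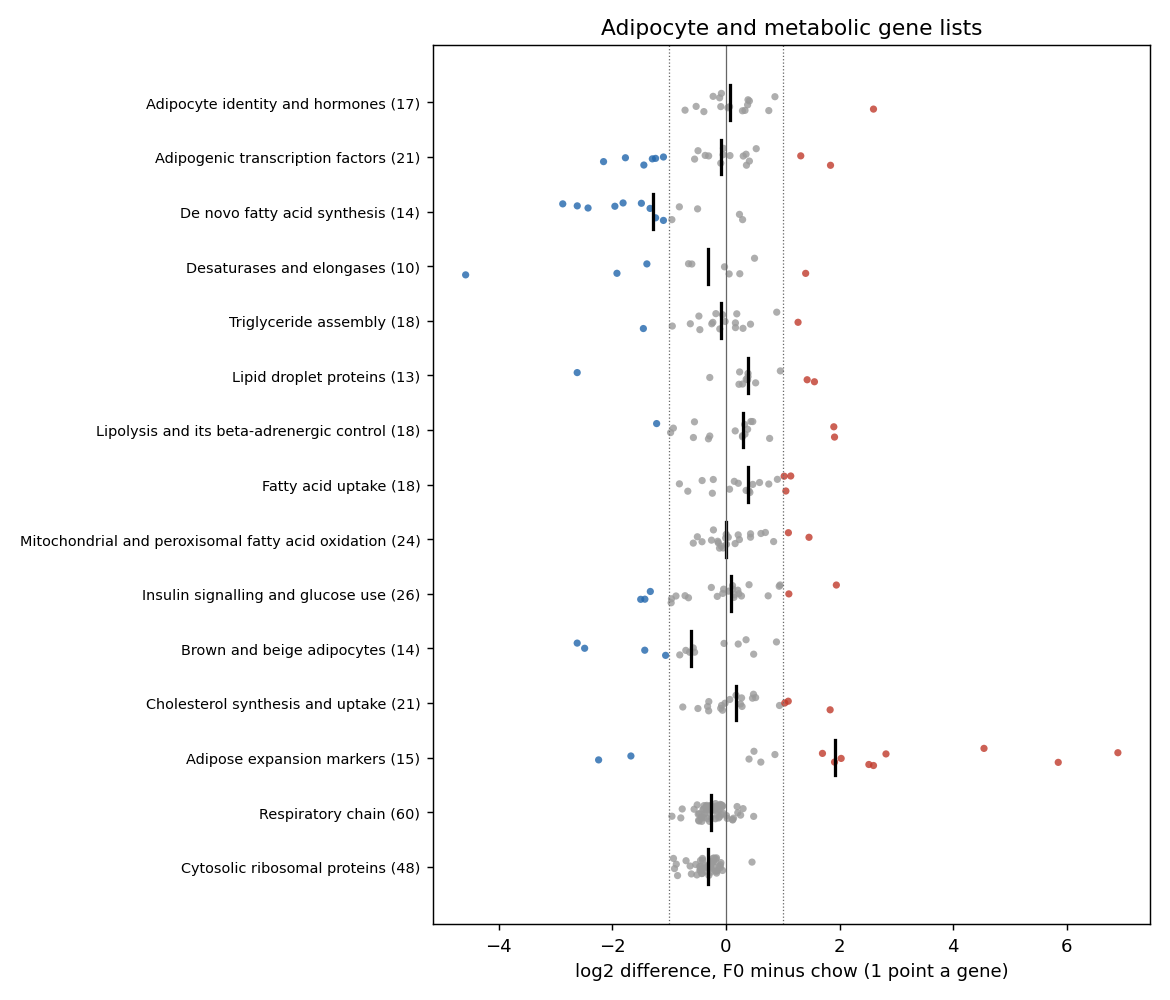
Log2 difference, F0 minus chow, of each detected gene of 15 adipocyte and metabolic lists, 1 point a gene, with the number detected in brackets. Red and blue points are at least 2-fold higher or lower, grey points under 2-fold, black bars list medians and dotted lines 2-fold. Fatty acid synthesis has a median of -1.29 and adipose expansion markers 1.91, while adipocyte identity lies at 0.06. The expansion list was made with earlier results of these data known.

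Genes that mark expanding fat depots were the metabolic list most often higher, with 9 of 15 at least 2-fold higher, 2 lower and a median of 1.91. Several such genes are known as markers from other studies of diet-fed mice. The list was drawn up with earlier results of these data known and includes Tph2, described below. Its counts and median therefore describe the list and are no support for expansion. Mest, an imprinted gene of the hydrolase family linked to adipocyte size, lay at 6.54 on chow and 11.08 on F0 (23.3-fold higher). Sfrp5, a secreted Wnt antagonist of adipocytes, was not detected on the chow array and lay at 10.47 on the F0 array (at least 50.2-fold higher). Bmp3, a member of the bone morphogenetic protein family, lay at 7.67 on chow and 10.19 on F0 (5.71-fold higher). Trp53inp2, an autophagy protein, was at 8.40 on chow and 11.21 on F0 (7.04-fold higher), and Peg3, an imprinted zinc finger gene, at 8.05 on chow and 10.08 on F0 (4.08-fold higher). The lower members were Igf2, the imprinted growth factor (3.19-fold lower), and Dlk1, the preadipocyte protein that restrains adipocyte formation (4.72-fold lower, with a log2 difference of -1.57 over the mean of its probes). Imprinted growth genes thus went both ways, with 2 of 14 higher and 2 lower. Tph2, the serotonin-making tryptophan hydroxylase known from neurons, had the highest bound of all genes: not detected on chow and at 11.38 on the F0 array (at least 94.0-fold higher). Of 7 detected genes of serotonin synthesis and breakdown 3 were higher and 1 lower. Of the enzymes of the hydroxylase's cofactor, Pcbd1 was at 7.06 on the F0 array alone (at least 4.71-fold higher), Gch1 was 2.26-fold higher (a log2 difference of 1.18, and 0.86 averaged over its probes), and Qdpr differed by 0.13. Ddc, which completes serotonin synthesis, and the vesicle transporters of the amine were detected on neither array.

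Among genes of Wnt ligands, receptors and secreted antagonists 4 of 25 were higher and 9 lower, with a median of -0.35 (-0.22 with genes detected on 1 array at their bound). Ror2, a Wnt5a receptor, was detected on chow alone at 8.63 (at least 13.3-fold lower). The R-spondin gene Rspo3, whose product amplifies Wnt signals, was at 8.26 on chow and 5.40 on F0 (7.24-fold lower), and Dkk3 was 5.11-fold lower. Axin2, a common target of canonical Wnt signals, was 2.14-fold lower. On the other side stood Ccn5, a matricellular protein of adipose tissue, at 8.25 on chow and 10.39 on F0 (4.41-fold higher).

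Transcription factors of body position were mostly below chow, while those of the adipocyte lineage divided. Of 21 adipogenic factors 2 were higher and 6 lower, with 13 below chow, 8 above it and a median of -0.09. Gata2, a factor of preadipocytes and also of mast cells, lay at 9.13 on chow and 6.98 on F0 (4.45-fold lower), Klf5 was 3.41-fold lower, and Zfp521, an inhibitor of adipocyte commitment, 2.72-fold lower. The higher ones were Irx3, a homeobox gene, at 6.72 on chow and 8.56 on F0 (3.58-fold higher), and Zfp423, a factor of white adipocyte identity, at 6.03 on chow and 7.35 on F0 (2.49-fold higher). Of 22 Hox and depot genes, which keep a memory of position along the body, 21 lay below chow and 1 above, with 5 at least 2-fold lower and their median at -0.74. The Hox partner genes Meis1 and Meis2 were 5.38-fold lower and 4.54-fold lower, and Tcf21, a factor of visceral fat, was 3.82-fold lower. Hoxa5 lay at 9.18 on chow and 8.10 on F0 (2.12-fold lower), Hoxd9 was 2.23-fold lower, and Hoxc10, a gene of posterior depots, differed by -0.87. Hoxd10, named for its size of difference and not a member of that list, lay at 9.16 on chow and 5.66 on F0 (11.3-fold lower). Brown and beige adipocyte genes had 4 of 14 lower and 0 higher, with Ucp1, the uncoupling protein, at 8.37 on chow and 5.88 on F0 (5.60-fold lower). Prdm16, the factor that directs brown identity, was dim and differed by 0.35.

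Macrophage transcripts were the main group above chow. Of 26 detected core macrophage genes 21 stood at least 2-fold above chow and 0 at least 2-fold below it, with a median difference of 1.74, and 18 of them were higher under every processing alternative. Cybb and Cd300lf were detected on neither array, and a few other listed genes were not analysed here. Adgre1, the F4/80 antigen, lay at 8.13 on chow and 10.12 on F0 (3.98-fold higher), and Mpeg1, a pore-forming protein of phagocytes, was 5.47-fold higher. Spi1, which encodes PU.1, the factor that sets myeloid identity, was at 5.03 on chow and 6.94 on F0 (3.75-fold higher). Csf1r, the receptor for the macrophage growth factor, remained under 2-fold at 8.70 on chow and 9.51 on F0 (0.82), and its ligand gene Csf1 differed by -0.28. Lyz2 (5.03-fold higher) and Lyz1 (2.42-fold higher), both lysozymes, are near-identical, so their probes may share transcripts.

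Members with the PU.1 letters GAGGAAGT near their start are shown, since PU.1 is the factor named above: Fcgr4, an activating receptor for antibodies, which lay at 7.15 on chow and 9.81 on F0 (6.32-fold higher), and Ctss, a lysosomal protease of antigen-presenting cells, at 5.47 on chow and 7.61 on F0 (4.39-fold higher). Both lie on the plus strand, Fcgr4 at chr1:171018676-171018975 and Ctss at chr3:95526536-95526835, in the same GRCm38.p6 windows from RefSeq. The capitals mark the reverse complement ACTTCCTC, which begins 24 bases before the start in Fcgr4 and 2 bases before it in Ctss.
Fcgr4: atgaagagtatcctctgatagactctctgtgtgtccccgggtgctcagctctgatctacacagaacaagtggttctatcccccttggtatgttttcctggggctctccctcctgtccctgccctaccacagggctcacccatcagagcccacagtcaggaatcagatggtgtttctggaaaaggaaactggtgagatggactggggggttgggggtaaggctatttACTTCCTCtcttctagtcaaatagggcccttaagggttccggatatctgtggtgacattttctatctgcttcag
Ctss: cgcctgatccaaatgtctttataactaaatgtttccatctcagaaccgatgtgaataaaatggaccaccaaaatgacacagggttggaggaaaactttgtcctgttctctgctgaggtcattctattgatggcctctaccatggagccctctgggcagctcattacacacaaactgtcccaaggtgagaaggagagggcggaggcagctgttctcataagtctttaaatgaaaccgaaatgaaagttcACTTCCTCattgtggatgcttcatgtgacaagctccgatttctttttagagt
Searched on both strands, GAGGAAGT stood in 3 of 18 core macrophage windows, the third being Cd53. It stood in 40 of 611 windows of higher genes (6.55%), in 14 of 568 of lower genes (2.46%) and in 3.28% of all promoters. No binding was measured.

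The surface receptors of myeloid cells followed the same side. Of 25 C-type lectin and Fc receptor genes 14 were higher and 0 lower, with a median of 1.13. Clec4d, a lectin that senses mycobacterial and fungal glycolipids, was at 5.26 on chow and 8.36 on F0 (8.60-fold higher), and Cd300ld at 5.72 on chow and 8.34 on F0 (6.16-fold higher). Clec7a, the receptor for fungal glucan known as dectin-1, was 3.23-fold higher. Lilrb4a, an inhibitory receptor, was detected on F0 alone at 7.51 (at least 6.43-fold higher). In the Toll-like receptor and adaptor list 12 of 23 were higher and 0 lower, with a median of 1.09. The endosomal receptor genes Tlr7 and Tlr13, which sense RNA, were 2.81-fold higher and 7.01-fold higher, and Unc93b1, which carries such receptors to the endosome, was 2.39-fold higher. Cd180, a Toll-like receptor of B cells and macrophages, lay at 4.83 on chow and 7.30 on F0 (5.57-fold higher), and its partner Ly86 at 7.80 on chow and 9.44 on F0 (3.13-fold higher). Tlr4, the endotoxin receptor, and Tlr2, a receptor for bacterial lipoproteins, differed by -0.02 and 0.03. Of 11 genes of beta2 leukocyte integrins and their ligands 3 were higher, among them Fermt3, the kindlin that activates them (3.85-fold higher), and Itgad, on F0 alone at 9.76 (at least 30.6-fold higher), whose 4 probes spread from 0.82 to 5.52. Itgax, the CD11c gene, was detected on neither array.

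Genes of lipid-associated macrophages, the phagocytes that take up lipid from dying adipocytes, had 13 of 24 higher and 0 lower, with a median of 1.29. Trem2, their lipid-sensing receptor, lay at 8.53 on chow and 11.04 on F0 (5.70-fold higher) and Gpnmb, a membrane glycoprotein, at 9.07 on chow and 13.16 on F0 (17.1-fold higher). Lgals3, the lectin galectin-3, was 3.80-fold higher, and Nceh1, a hydrolase of cholesterol esters, 3.56-fold higher. Of lipid genes that adipocytes also express, Cd9 differed by 0.18, and the probe for Cd36 was dim, with a difference of 0.91 that was 0.41 without background correction and past 2-fold on the processed values of the authors. Lysosomal enzymes and the proton pump had 12 of 41 higher and 0 lower, with a median of 0.73, and 38 of the 41 lay above chow. Lgmn, the asparaginyl protease legumain, was at 10.18 on chow and 12.05 on F0 (3.67-fold higher), and Ctsk, a collagen-degrading cathepsin, at 9.34 on chow and 11.07 on F0 (3.31-fold higher). Lipa, the acid lipase that frees fatty acids in the lysosome, was 2.53-fold higher. Pump subunits lay between 0.00 for Atp6v1d and 1.36 for Atp6v0a1. The membrane proteins Lamp1 and Lamp2 differed by 0.42 and -0.26 (0.04 for Lamp2 over the mean of its probes), and Tfeb, a transcription factor of lysosome genes, was dim, at 5.01 on the F0 array alone.

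Lysosomal genes are known for E-box letters recognised by factors of the Tfeb family, so the promoters of Ctsl, the cathepsin L gene, which was detected on F0 alone at 6.48 (at least 3.15-fold higher), and Atp6v1a, the catalytic pump subunit, at 8.56 on chow and 9.41 on F0 (0.85), are printed with CACGTG in capitals. Both are on the minus strand of GRCm38.p6 in RefSeq, Ctsl at chr13:64370471-64370770 and Atp6v1a at chr16:44139210-44139509, and the letters begin 236 and 131 bases before the start.
Ctsl: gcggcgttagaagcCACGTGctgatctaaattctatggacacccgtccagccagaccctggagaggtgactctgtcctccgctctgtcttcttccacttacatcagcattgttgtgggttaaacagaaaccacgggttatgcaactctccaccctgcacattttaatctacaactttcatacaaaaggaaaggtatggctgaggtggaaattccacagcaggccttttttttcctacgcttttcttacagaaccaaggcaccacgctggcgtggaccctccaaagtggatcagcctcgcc
Atp6v1a: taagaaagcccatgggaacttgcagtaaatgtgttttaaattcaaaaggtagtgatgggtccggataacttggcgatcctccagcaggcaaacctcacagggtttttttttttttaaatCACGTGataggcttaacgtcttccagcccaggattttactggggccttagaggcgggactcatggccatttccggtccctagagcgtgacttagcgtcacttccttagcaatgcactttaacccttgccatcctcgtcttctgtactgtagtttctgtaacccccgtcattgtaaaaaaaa
CACGTG, which reads the same on both strands, stood in 11 of 34 lysosomal windows (32.4%), against 10.2% of those of detected genes, 6.38% of higher genes, 9.68% of lower genes and 7.24% of all promoters. Of the 11 genes Ctsl and Glb1 were at least 2-fold higher. The second probe of Glb1, which encodes beta-galactosidase, lay on the other side of chow (1.42 by the brightest probe and -0.42 by the other).

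Resident and alternatively activated macrophage genes did not share the direction of the core markers: 2 of 26 were higher (7.69%) and 5 lower (19.2%), with a median of -0.24. Over all genes the shares were 7.06% and 7.02%. Gas6, the bridging ligand by which phagocytes recognise dying cells, lay at 12.05 on chow and 10.25 on F0 (3.47-fold lower). The lectin genes of resident cells Cd209b and Cd209f were 3.42-fold lower and 2.19-fold lower, and the hyaluronan receptor gene Lyve1 was 2.83-fold lower, a gene that lymphatic vessels express too. Mrc1, the mannose receptor, and Retnla differed by 0.37 and -0.26. Arg1, arginase, was detected on F0 alone at 6.38 (at least 2.94-fold higher).

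Other leukocytes divided by type. Mast cell genes had 6 of 11 lower and 1 higher, with a median of -1.30. The granule protease genes were lower together: Cma1 3.04-fold lower, Cma2 2.87-fold lower, Mcpt4 2.46-fold lower, Tpsb2 2.55-fold lower and Cpa3 2.84-fold lower, the last with a log2 difference of -0.98 over the mean of its probes. Kit, the growth factor receptor of mast cells, differed by -0.44. Hpgds, a prostaglandin D synthase also found in macrophages, went against the list at 4.84 on chow and 7.16 on F0 (4.97-fold higher). Antigen presentation by MHC class II had 6 of 18 genes higher and 0 lower, with a median of 0.82. Cd74, the invariant chain, lay at 11.76 on chow and 12.87 on F0 (2.15-fold higher), the peptide-loading genes H2-DMb1 and H2-DMb2, a similar pair, were 4.13-fold higher and 5.27-fold higher, and Cd83, a maturation marker of dendritic cells, was 5.19-fold higher. Of the T cell receptor chain genes, Cd3e and Cd3g lay at -0.21 and -0.01, and Cd3d and Cd247 at 0.69 and 0.49. Of 17 T cell and NK cell genes 4 were higher and 1 lower, with 12 above chow and a median of 0.43. The cytotoxic granule genes Nkg7 and Prf1 were 2.85-fold higher and 2.11-fold higher. B cell genes had 3 of 13 higher: Cd72 5.18-fold higher, Blnk at least 4.54-fold higher and Cd37 3.37-fold higher, of which none is confined to B cells, while Cd79b, a chain of their antigen receptor, differed by 0.87. Of 11 neutrophil genes 2 were higher and 2 lower, with the calcium-binding alarmin S100a8 at 7.36 on chow and 10.04 on F0 (6.38-fold higher) and its partner S100a9 at 5.95 on chow and 6.85 on F0 (0.91). Their gelatinase gene Mmp9 was 3.88-fold lower.

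Of 27 chemokine and receptor genes 11 were higher and 1 lower. Ccl3 and Ccl4, attractants of monocytes and lymphocytes, were 5.64-fold higher and 5.51-fold higher. Ccl2, the main monocyte attractant, was detected on F0 alone at 6.52 (at least 3.24-fold higher), and Ccl7 was 3.55-fold higher. Ccl6 and Ccl9, which macrophages secrete in mice, lay 4.27-fold higher and 3.55-fold higher. Cxcl12, which holds cells in tissues, differed by -0.72, and Ccl12, itself a monocyte attractant, was the lower one (2.61-fold lower). Ccl8, another such attractant, differed by -0.55. Among 33 cytokine genes 6 were higher and 5 lower. Il1rn, the decoy ligand that blocks interleukin 1, was detected on F0 alone at 7.55 (at least 6.62-fold higher), whereas Il1b and Tnf, also on F0 alone, lay near the detection limit at 4.93 and 5.15. Tgfb1 was at 6.44 on chow and 8.34 on F0 (3.72-fold higher). Il33, the stromal alarmin that sustains regulatory T cells and type 2 immunity in fat, lay at 8.35 on chow and 5.18 on F0 (9.01-fold lower). Il18 was 2.13-fold lower and Tnfsf13b, the B cell survival factor BAFF, 2.08-fold lower. Il7r, the interleukin 7 receptor, was at 5.86 on chow and 8.80 on F0 (7.68-fold higher).

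Complement and acute phase genes were mostly above chow. Of 19 complement genes 7 were higher and 2 lower, with the C1q chains at 1.04 for C1qa and 1.38 for C1qc on the log2 scale. Cfb, the protease of the alternative pathway, was 2.73-fold higher, and Masp1, a protease of the lectin pathway, 5.52-fold lower. Of 14 acute phase genes 6 were higher and 3 lower. Hp, which encodes haptoglobin, lay at 11.66 on chow and 14.33 on F0 (6.36-fold higher), Lbp, the endotoxin carrier, was 3.69-fold higher, and the metallothionein genes Mt1 and Mt2 were 2.34-fold higher and 5.47-fold higher. Cp, the copper protein ceruloplasmin, was 2.98-fold lower. Interferon-stimulated genes had 3 of 34 higher (8.82%, close to the 7.06% of all genes) and 0 lower, with a median of 0.03 that ran from -0.09 to 0.09. Among the 3 was Irf5, an interferon regulatory factor of inflammatory macrophages (2.80-fold higher). Ifit3, Oasl2 and Usp18, common targets of type I interferon, differed by -0.52, -0.80 and -0.56. In the list of Ubd, the immunoproteasome and MHC class I 3 of 17 genes were higher and 0 lower. Ubd, a ubiquitin-like tag induced by inflammatory cytokines, had the highest fold above chow of the genes detected on both arrays, at 6.71 on chow and 12.16 on F0 (43.6-fold higher). The immunoproteasome genes Psmb8 and Psmb9 lay at 1.04 and 0.35.

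**Figure D3:**
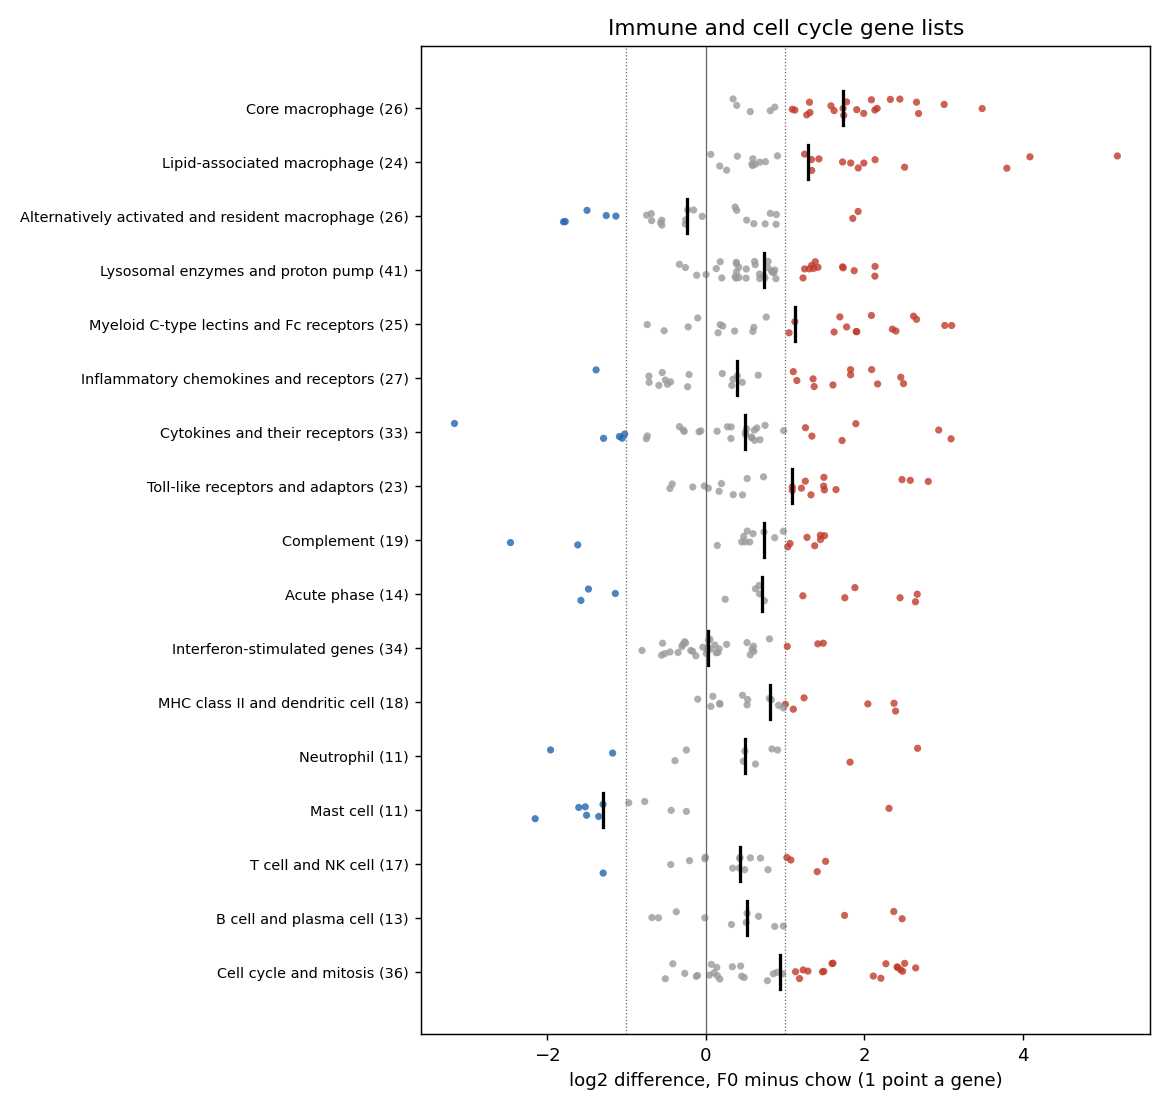
Log2 difference, F0 minus chow, of each detected gene of 17 immune and cell cycle lists, drawn as in the plot of metabolic lists. Core macrophage genes have a median of 1.74 with 0 of 26 below chow, mast cell genes one of -1.30 and interferon-stimulated genes one of 0.03.

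Genes of cell division had 17 of 36 members higher and 0 lower, with a median of 0.94, or 0.82 with genes detected on 1 array at their bound, and most of the higher ones act in mitosis. Cdk1, the kinase that starts mitosis, lay at 5.46 on chow and 7.73 on F0 (4.84-fold higher), Prc1, a protein of the mitotic spindle, at 5.69 on chow and 8.34 on F0 (6.28-fold higher), and Birc5, survivin, was 5.35-fold higher. Tk1, the thymidine kinase of dividing cells, was 5.70-fold higher. The replication helicase genes Mcm2 to Mcm7 stayed within 2-fold, from -0.51 for Mcm4 to 0.85 for Mcm5, and Ccnd1, cyclin D1, differed by -0.41. Cdkn1a, the p21 inhibitor of the cell cycle, stood in the same list and was higher too (5.60-fold higher). A further 12 listed genes, among them Ccna2 and Rrm2, were detected on neither array, and Mki67 had no named probe. Of 23 DNA methylation and histone modifier genes 3 were higher and 1 lower. Uhrf1, which guides maintenance methylation in dividing cells, was 2.35-fold higher, whereas Dnmt1, the maintenance methyltransferase, differed by 0.07. The stress-induced genes Gadd45a and Gadd45b were 2.77-fold higher and 4.26-fold higher, the latter with a log2 difference of 1.19 over the mean of its probes.

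Stress gene lists had medians near chow, with some members at least 2-fold above it. Of 26 endoplasmic reticulum stress genes 6 were higher (23.1%, against 7.06% of all genes) and 0 lower, around a median of 0.01. The higher ones were led by the stress-induced factor Atf3, at 5.93 on chow and 8.34 on F0 (5.30-fold higher). Ddit3, the CHOP factor, differed by 0.82, and the chaperone genes Hsp90b1 and Pdia4 by -0.71 and -0.88. Of 30 oxidative stress genes 2 were higher (6.67%) and 4 lower (13.3%), against 7.06% and 7.02% of all genes. Hmox1, the heme oxygenase, lay at 5.21 on chow and 7.74 on F0 (5.78-fold higher), and Sod3, the extracellular superoxide dismutase, at 8.33 on chow and 10.18 on F0 (3.60-fold higher). Gsta4, which detoxifies lipid aldehydes such as hydroxynonenal, was at 9.30 on chow and 6.38 on F0 (7.58-fold lower). Gpx3, the secreted glutathione peroxidase, was 3.23-fold lower and Gpx8 3.54-fold lower.

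Matrix genes lay on both sides of chow. Of 19 collagen genes 2 were higher and 4 lower. Of the chains of type IV collagen, which forms the basement membrane around each adipocyte, Col4a2 lay at 11.36 on chow and 12.62 on F0 (2.39-fold higher), and its partner Col4a1 just under 2-fold at 11.96 on chow and 12.91 on F0 (0.95). Col4a5, a further chain of that type, was 4.09-fold lower. Col5a3 was at 5.20 on chow and 7.13 on F0 (3.81-fold higher). The fibrillar chain Col1a2 was at 8.49 on chow and 7.29 on F0 (2.29-fold lower), Col1a1 and Col3a1 differed by -0.76 and -0.42, and Col14a1 was 2.28-fold lower. Further basement membrane genes stayed within 2-fold: Nid1 was at 0.51, Nid2 at 0.78 and Hspg2, perlecan, at 0.71, while of the laminin genes Lama4 was at -0.82, Lamb2 at -0.25, Lamc1 at 0.04, Lamb1 at 0.19 and Lama2 at 0.85. Of 39 further matrix genes 3 were higher and 8 lower. Fbln1, fibulin 1, lay at 11.61 on chow and 9.49 on F0 (4.36-fold lower). The small proteoglycan genes Ogn and Lum were 3.40-fold lower and 2.63-fold lower, and Ccn2, a matrix gene induced by TGF-beta and stretch, was 2.60-fold lower. Lox, which cross-links collagen, was 2.30-fold higher, and Pcolce2, an enhancer of procollagen processing, 5.08-fold higher. For Pcolce2 the log2 difference of 2.35 shrank to 1.54 when chow and F0 were normalized without the other arrays and to 1.62 on the authors' processed values. Of 20 matrix protease and inhibitor genes 5 were higher and 3 lower. Mmp12, the macrophage elastase, was on F0 alone at 9.64 (at least 28.3-fold higher), and Adam8, a protease of leukocytes, also on F0 alone at 7.75 (at least 7.62-fold higher). Mmp14, a membrane collagenase of stromal cells, was 2.10-fold lower, and Mmp17 lay at 8.50 on chow and 5.25 on F0 (9.54-fold lower).

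Stromal progenitor genes were below chow, with 8 of 26 at least 2-fold lower, 0 higher and a median of -0.58. Ptn, the secreted growth factor pleiotrophin, lay at 10.56 on chow and 6.21 on F0 (20.4-fold lower). Osr2, a zinc finger factor of mesenchyme, differed by -2.72, and Dpp4, a peptidase that marks early progenitors, 2.33-fold lower. Igfbp6, an IGF2-binding protein, was 3.61-fold lower. The platelet-derived growth factor receptor genes, which mark fibroblasts and perivascular cells, lay closer to chow, with Pdgfra at -0.63 and Pdgfrb at 0.03, and so did Pi16 at -0.35.

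Blood vessel genes as a list stayed near chow: of 26 endothelial genes 0 were higher and 1 lower, and the median of -0.03 ran from -0.11 to 0.07 over the alternatives. Its members spread on both sides. Emcn, a sialoglycoprotein of veins and capillaries, was 2.01-fold lower, and Vwf, the platelet-tethering factor, Plvap and Pecam1 differed by -0.93, -0.77 and -0.73. Egfl7 and the tight junction gene Cldn5 stood at 0.90 and 0.90, and Cdh5, VE-cadherin, at 0.16. Vegfa, the vessel growth factor, differed by -0.55, and Fgf1, which adipocytes make under fat-rich diets, was 2.41-fold lower. Of 7 EGF family genes 1 was higher and 1 lower. Btc, the EGF receptor ligand betacellulin, lay at 6.48 on chow and 8.72 on F0 (4.73-fold higher), and Nrg4, a neuregulin secreted by adipocytes, at 10.44 on chow and 8.88 on F0 (2.95-fold lower).

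Lymphatic genes were lower, with 8 of 12 at least 2-fold lower, 0 higher and a median of -1.46 (-1.14 at the bound). On chow alone 5 of the 12 were detected. Among genes detected on both arrays the largest differences below chow were those of the lymphatic chemokine genes Ccl21a, at 11.74 on chow and 5.40 on F0 (81.2-fold lower), and Ccl21c (76.2-fold lower), near-identical copies whose probes may share transcripts. Reln, reelin, which lymphatic endothelium secretes, was detected on chow alone at 9.21, with a bound of -4.32 for the log2 difference, and Mmrn1, multimerin, on chow alone at 8.07 (at least 9.05-fold lower). Pdpn, podoplanin, of lymphatic endothelium, mesothelium and fibroblasts, was 2.54-fold lower. Prox1 and Flt4, which define lymphatic endothelium, were detected on neither array, and Ccl19, made by lymph node stroma, differed by 0.08.

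Contractile genes of smooth muscle were far below chow while genes of pericytes, the mural cells of capillaries, were not. Of 32 genes 19 were at least 2-fold lower and 1 higher, with a median of -1.66. Myh11, the smooth muscle myosin, lay at 11.93 on chow and 7.95 on F0 (15.8-fold lower), Actg2, an actin of visceral smooth muscle, at 13.41 on chow and 8.92 on F0 (22.4-fold lower), and Des, desmin, at 11.16 on chow and 7.95 on F0 (9.24-fold lower). Myocd, the coactivator that switches on contractile genes, was 4.85-fold lower. Acta2, the vascular smooth muscle actin, differed by -0.85 by its brightest probe and by -1.60 as the mean of 5 probes. The pericyte genes Rgs5, Abcc9 and Kcnj8 stood at -0.25, 0.02 and 0.49, Notch3 at -0.39 and Cspg4, the NG2 proteoglycan, at 0.46. Synpo2, an actin-bundling protein, was the member on the other side, detected on F0 alone at 7.11 (at least 4.89-fold higher).

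Myl9, the regulatory light chain of smooth muscle myosin, lay at 12.56 on chow and 9.00 on F0 (11.8-fold lower), and its promoter is printed because it was the 1 of 27 smooth muscle windows that held a CArG box, the site of serum response factor, the partner of myocardin. It is on the plus strand at chr2:156775214-156775513 (GRCm38.p6, RefSeq), and the capitals, the box, begin 161 bases before the start.
Myl9: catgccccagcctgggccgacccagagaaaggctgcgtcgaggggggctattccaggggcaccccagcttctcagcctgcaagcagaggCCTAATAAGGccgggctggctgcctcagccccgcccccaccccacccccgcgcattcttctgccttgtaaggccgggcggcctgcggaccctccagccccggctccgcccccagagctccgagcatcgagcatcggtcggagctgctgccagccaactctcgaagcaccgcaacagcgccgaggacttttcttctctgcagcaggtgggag
The box, searched on both strands, stood in 3 of 22 windows of skeletal muscle genes, in 3.17% of those of lower genes, in 1.64% of those of higher genes and in 1.57% of all promoters. None of those 3 skeletal muscle genes was at least 2-fold lower: Acta1 differed by 1.41, Ldb3 by 0.47 and Myh4 by -0.59. The window covers promoters close to the start and no distant sites.

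Skeletal muscle genes had 18 of 26 lower and 2 higher, and their median was -1.60 (-1.48 at the bound). On chow alone 12 of the 26 were detected. Fast troponin genes Tnnc2 and Tnni2 were 12.4-fold lower and 9.03-fold lower, Mylpf, a fast myosin light chain, was 6.42-fold lower, and Ckm, the muscle creatine kinase, was on chow alone at 6.77 (at least 3.68-fold lower). Atp2a1, the calcium pump of fast fibres, was on chow alone at 8.94 (at least 16.5-fold lower). Acta1, the skeletal muscle actin, went the other way at 10.31 on chow and 11.72 on F0 (2.66-fold higher), and Pvalb, parvalbumin, differed by 0.76. Mesothelial genes had 14 of 20 lower, 0 higher and none above chow, with a median of -1.67. Of the 20, 11 were detected on chow alone, and genes selected in that way can hardly lie above chow. Upk3b, a uroplakin of mesothelium, lay at 11.65 on chow and 7.33 on F0 (19.9-fold lower), Msln, mesothelin, was 5.28-fold lower and Lrrn4 at least 2.09-fold lower. The keratin genes Krt8 and Krt19, shared with other simple epithelia, were 7.41-fold lower and at least 6.01-fold lower. The list of mammary and other simple epithelium had 8 of 12 lower and 0 higher, with 9 of the 12 detected on chow alone. Of the 8, 4 were keratin genes that are also on the mesothelial list. The mammary genes Epcam, Csn2 and Krt5 were detected on neither array and Krt14 differed by -0.38. Of 8 nerve genes 1 was higher and 2 lower. Ngfr, the neurotrophin receptor p75, was at 8.42 on chow and 5.93 on F0 (5.63-fold lower) and Ncam1 on chow alone at 7.30 (at least 5.29-fold lower), while Sox10, which defines Schwann cells, was detected on neither array.

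Genes of muscle, mesothelium, epithelium and lymphatics lay mostly below chow on the same pooled array as the stromal progenitor and mast cell genes. Matrix and nerve genes lay on both sides of it. In the muscle, mesothelium, epithelium and lymphatic lists 63 genes were at least 2-fold lower and 3 higher. On the macrophage, lysosome and myeloid receptor lists 50 genes were higher and 0 lower. The lists share members, and their joint number of detected genes was not counted. List by list, 59.4% to 70.0% of the former were lower, against 7.02% of all genes. Of the latter 29.3% to 80.8% were higher, against 7.06% of all genes. The part of these genes in the other differences was not tested. Hepatocyte genes, by contrast, had 4 of 14 higher and 3 lower around a median of 0.01, with the defining gene Alb detected on neither array and Ttr at 4.92 on chow alone. No pituitary gene of the list was detected, and of 5 detected genes each of the ovary, uterus and adrenal list and the kidney and pancreas list 0 and 1 were higher and 1 and 0 lower.

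**Figure D4:**
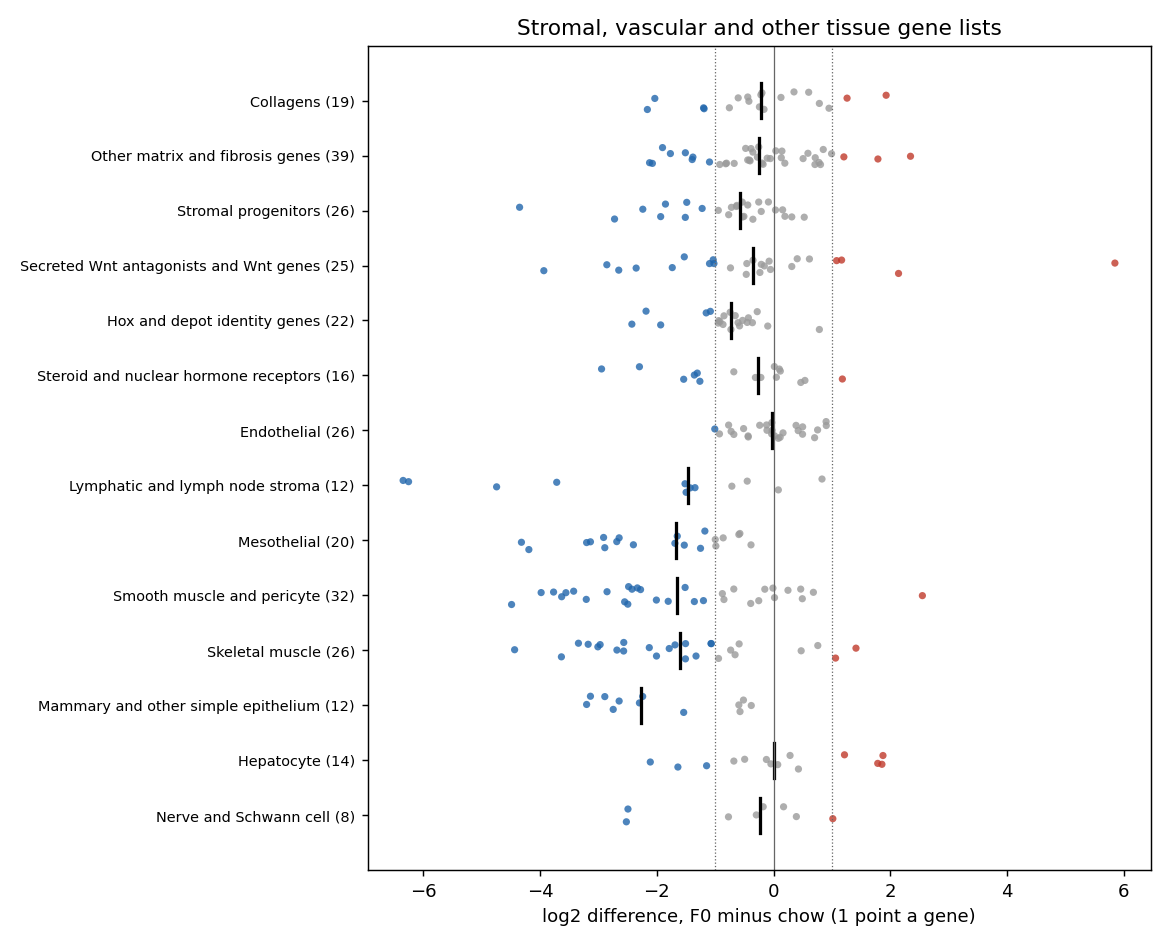
Log2 difference, F0 minus chow, of each detected gene of 14 stromal, vascular and other tissue lists, drawn as in the plot of metabolic lists. Mesothelial, smooth muscle, skeletal muscle and lymphatic lists have medians from -1.67 to -1.46, against -0.03 for endothelial genes.

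The oestrogen receptor gene and some clock genes were also among the lower ones. Esr1, the oestrogen receptor, lay at 8.93 on chow and 6.63 on F0 (4.92-fold lower). Greb1, a gene it induces, was on chow alone at 7.23 (at least 5.06-fold lower), and Pgr, the progesterone receptor and another of its targets, on chow alone at 5.82 (at least 1.91-fold lower). On the other side stood Fkbp5, a target of glucocorticoid receptors (2.26-fold higher). In all 1 of 16 receptor genes was higher and 6 lower, and the median of -0.26 ran from -0.56 to 0.03. Of 15 clock genes 4 were lower and 0 higher, with 8 below chow and 7 above it. Dbp, an output factor of the clock, was at 11.61 on chow and 9.99 on F0 (3.08-fold lower), Bhlhe40, a clock repressor, was 2.68-fold lower, Per3 at least 2.45-fold lower and Nr1d2, REV-ERB beta, 2.47-fold lower. Arntl, the BMAL1 factor whose rhythm runs opposite to Dbp, differed by 0.85. The labels give no hour of sampling.

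All 60 detected genes of the respiratory chain were within 2-fold, 50 of them below chow, with a median of -0.25. All 48 detected cytosolic ribosomal protein genes were within 2-fold as well, 47 below chow, with a median of -0.31. Both medians moved with the scaling, from -0.25 to -0.07 and from -0.32 to -0.12, and so did the counts: scaled to the median of probes detected on all 4 arrays, 36 of 60 and 33 of 48 lay below chow. Of the 20 genes brightest on average over both arrays 19 were within 2-fold, the exception being Mt1. Of 13 apolipoprotein and lipoprotein genes 4 were higher and 1 lower. Pltp, the phospholipid transfer protein, lay at 6.07 on chow and 8.42 on F0 (5.09-fold higher), Apoc4 on F0 alone at 7.50 (at least 6.39-fold higher), and Apoc2, the activator of lipoprotein lipase, was 2.14-fold higher, while Apoe differed by 0.40. Of 27 solute carrier genes 7 were higher and 5 lower. Slc15a3, a lysosomal transporter of histidine and peptides, lay at 5.76 on chow and 9.64 on F0 (14.7-fold higher), Slc11a1, an iron transporter of phagosomes, was 3.79-fold higher, and Slc6a13, a GABA transporter, 3.45-fold higher. Slc5a6, the carrier of biotin and pantothenate, the vitamins of fatty acid synthesis enzymes, was at 10.65 on chow and 8.37 on F0 (4.88-fold lower). Slc1a3, a glutamate transporter, was 2.39-fold lower.

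Only 1164 of the 10801 genes stood in a list, so most higher and lower genes fell outside them. Of the 763 higher genes 562 belonged to no list, and of the 758 lower ones 589. Over all genes 7.06% were higher and 7.02% lower. Among the largest differences above chow of genes detected on both arrays were Dpep2, a membrane dipeptidase, at 5.59 on chow and 9.62 on F0 (4.03, or 2.82 as the mean of 4 probes), and Rgs1, a brake on chemokine receptor signalling in leukocytes, at 5.87 on chow and 9.69 on F0 (14.1-fold higher). Arhgap25, a signalling protein of leukocytes, was 9.96-fold higher, Lat2, a signalling adaptor of myeloid cells and B cells, 8.69-fold higher, and Myo1f, a leukocyte myosin, 7.48-fold higher. Hk3, a hexokinase of myeloid cells, lay at 6.36 on chow and 9.19 on F0 (7.11-fold higher). The survival genes Bcl2a1b (7.27-fold higher) and Bcl2a1d (7.80-fold higher) are near-identical copies. Not all leading genes are known from leukocytes. Ret, the receptor tyrosine kinase of GDNF family ligands, was at 6.01 on chow and 9.01 on F0 (7.99-fold higher), Tfr2, an iron-sensing transferrin receptor, at 4.85 on chow and 7.87 on F0 (8.12-fold higher), and Dclk3, a kinase, at 5.70 on chow and 8.71 on F0 (8.05-fold higher). Got1l1, a relative of aspartate aminotransferase, was 10.3-fold higher. On F0 alone stood Slc5a7, the choline transporter of cholinergic neurons, at 9.12 (at least 19.7-fold higher), Lipf, gastric lipase, at 8.75 (at least 15.2-fold higher), Krt79, a keratin, at 8.11 (at least 9.80-fold higher), and Gdf3, a TGF-beta family ligand known from adipose macrophages, at 8.56 (at least 13.3-fold higher).

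Below chow and outside the lists, Cldn10, a claudin of tight junctions, lay at 9.67 on chow and 5.57 on F0 (17.2-fold lower) and Asb2, which targets filamins for degradation in muscle and blood cells, at 9.20 on chow and 5.75 on F0 (10.9-fold lower). Mrvi1, a smooth muscle substrate of cGMP kinase, was 10.8-fold lower. Acsm3, a mitochondrial medium-chain acyl-CoA synthetase, was at 9.62 on chow and 5.87 on F0 (-3.75, or -2.88 as the mean of 3 probes), and Flrt1, an adhesion protein, at 9.06 on chow and 5.09 on F0 (-3.97, or -2.85 as the mean of its probes). On chow alone stood Wfdc2, a secreted protein of epithelia, at 9.33 (at least 21.6-fold lower), Cxadr, a junctional protein that serves as a virus receptor, at 7.85 (at least 7.79-fold lower), Bves, a membrane protein of muscle, at 8.62 (at least 13.2-fold lower), Foxq1, a forkhead factor, at 8.32 (at least 10.8-fold lower), and Sema3a, an axon guidance factor, at 7.99 (at least 8.53-fold lower).

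For genes with several probes the brightest is given throughout, and for some genes named above the probes spread by more than 1 on the log2 scale without a second value being printed. Over the mean of their probes, the log2 differences of such genes were as follows. Above chow, Gpnmb was at 3.40, Slc11a1 at 2.62, Tfr2 at 2.42, Bcl2a1d at 2.39, Il1rn at 2.32, Il7r at 2.19, Tlr13 at 2.14, Aqp7 at 1.74, Lyz2 at 1.62 and Cd180 at 1.43. Below chow, Bves was at -3.56, Cldn10 at -3.35, Mylpf at -3.34, Cxadr at -2.47, Rspo3 at -1.99, Fbln1 at -1.78, Masp1 at -1.53, Igf1r at -1.24 and Fads2 at -1.10. These all kept their side of chow and stayed past 2-fold. Other named genes came under 2-fold when averaged over probes. They included Angptl4 at 0.56, Acadl at 0.86, Gch1 at 0.86, Glb1 at 0.50, Cpa3 at -0.98, Per3 at -0.94 and Tnfsf13b at -0.94.

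The F1 and F2 arrays, which are compared with the same chow array and so share its error, are given beside F0 for a few genes. Lep, at 14.51 on F0, had 14.52 on F1 and 13.86 on F2, and Mest, at 11.08 on F0, had 10.76 on F1 and 9.80 on F2. Fasn, at 5.87 on F0, had 5.91 on F1 and 5.14 on F2. Tyrobp, the myeloid signalling adaptor, lay at 7.43 on chow and 10.44 on F0, with 10.90 on F1 and 11.16 on F2. Of the stromal genes, Ptn had 5.79 on F1 and 8.15 on F2 and Esr1 5.76 on F1 and 5.87 on F2. Cpa3 had 8.86 on F1 and 10.78 on F2, against 8.71 on chow and 7.21 on F0. Ccl21a lay at 6.25 on F1 and 10.44 on F2, against 11.74 on chow and 5.40 on F0.

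**Figure D5:**
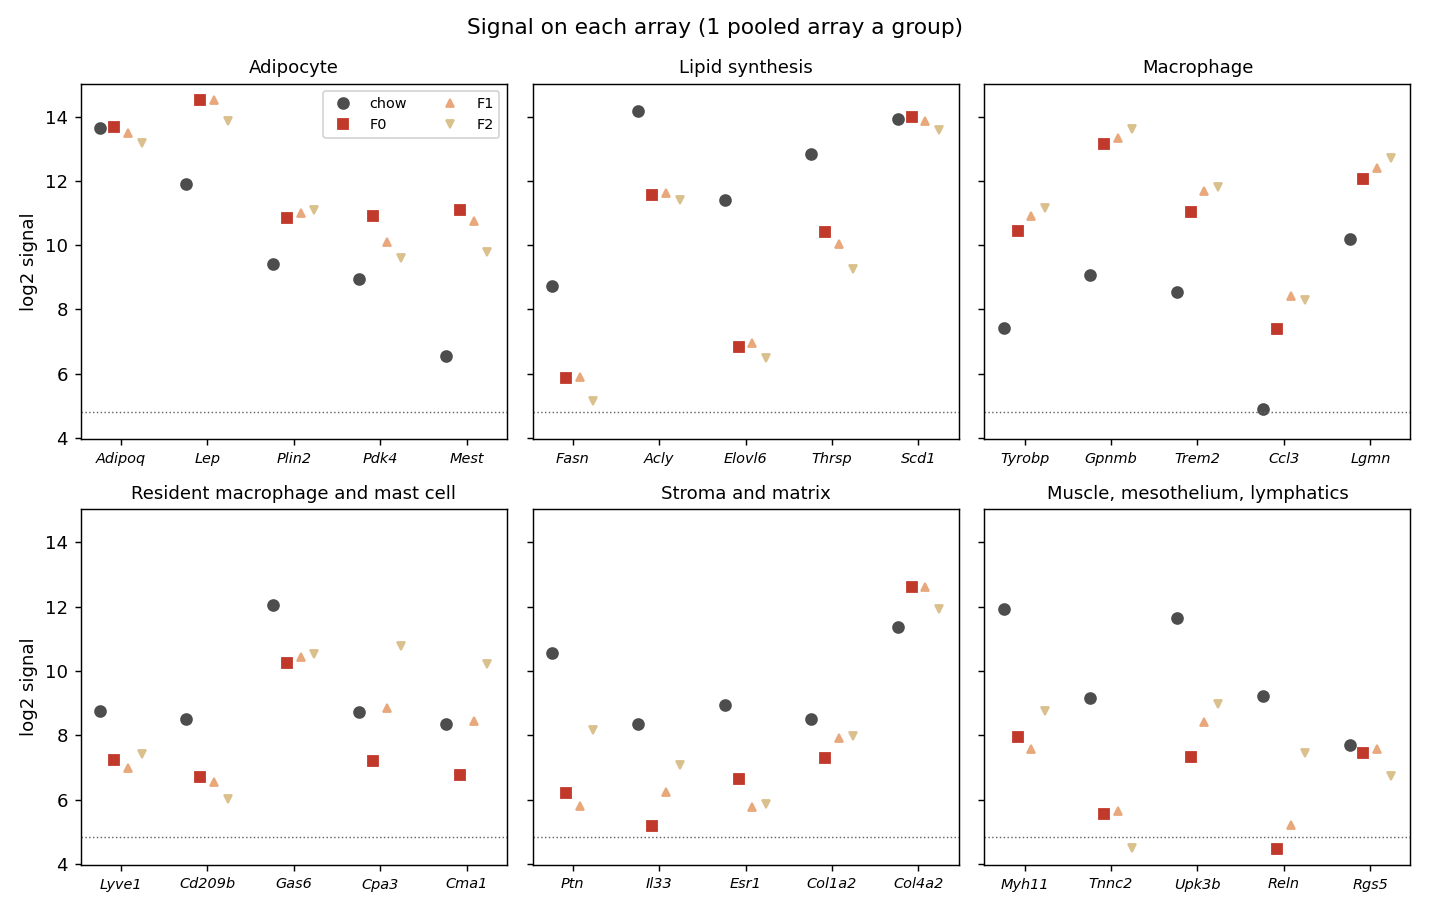
Log2 signal of 30 genes on each of the 4 arrays, 1 point an array, with the dotted line at the lowest detected signal of the chow array (4.82). Dark circles are chow, red squares F0, and light triangles F1 and F2. Between chow and F0 adiponectin is level, Fasn differs by -2.87, Gpnmb by 4.09 and Ptn by -4.35 on the log2 scale.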

How the data were processed

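The authors deposited, for each array, the scanner's probe intensities without normalization beside a detection p-value per probe. A second deposited table holds their processed intensity values, background subtracted as set against the first, and served as an alternative only. GenomeStudio 2010.2 is named in the submitters' processing notes, and no further step is given in the sources used here. Intensities of the 4 arrays were background corrected with the normexp model of limma 3.58.1 in R 4.3.3 (negative controls deduced from the steps of the detection p-values, 1 in 936, offset 16), quantile normalized and put on the log2 scale. Probes were named from the platform annotation: of 45281 probes 34885 had 1 gene symbol, 18 several and 10378 none, and 34807 symbols were matched to RefSeq by gene ID. A gene was represented by its brightest probe among those detected at p below 0.01 on either array. The calculation of differences was tested on simulated data. Python 3.11.15 with pandas 2.3.3, numpy 2.4.6 and matplotlib 3.10.9 made counts and plots.

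Groups came from the labels, and with 1 array each no model or test was fitted. Alternatives were no background correction, an offset of 50, the authors' processed values, median scaling over all probes or over those detected on all 4 arrays, quantile normalization of chow and F0 alone, the mean over probes, a detection p of 0.05, genes detected on both arrays only, and a 1.5-fold threshold. The genes, the lists and these choices were made with earlier results of these data known. Genes named are list members, the 25 largest differences each way among genes detected on both arrays, the 12 largest bounds each way, and the 20 brightest genes. Not all of the ranked genes are described.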

Additional observations from a re-analysis of the deposited data

Results flagged for a closer look

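Probes without a single gene symbol stood outside the comparison of named genes. Of 10396 such probes 2871 were detected on the chow or the F0 array, and 152 of them were at least 2-fold higher on the F0 array than on the chow array, while 219 were at least 2-fold lower. Their log2 differences ran from -4.81 to 4.66. They were picked out because they carry signal in data that no list or named gene uses, and their genes were not identified here. With 1 array a group, single arrays far from the others of their group could not be looked for.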

How the results depend on the processing

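Counts of genes depended on the background correction and the threshold more than on other choices. Without background correction 395 genes were higher and 367 lower, and with an offset of 50 the counts were 464 and 456. At 1.5-fold they were 1701 and 1746. The other alternatives kept both counts within 1.5 times those reported (763 and 758), from 618 to 934 higher and from 522 to 955 lower. Adding a constant to all signals compresses differences of dim probes by construction. Of the lists that lead the text, the lysosomal list had 25 genes higher in place of 12 at 1.5-fold. Cell cycle genes had 10 higher in place of 17 without background correction and 11 with an offset of 50. Mesothelial genes had 7 lower in place of 14 over genes detected on both arrays. Skeletal muscle genes had 11 lower in place of 18 without background correction and 9 over genes detected on both arrays. The other counts of these lists, 74 of 80, stayed within 1.5 times. None of the 74 genes named for their size of difference turned direction under these alternatives, and no list median past 2-fold did. A count has no direction to turn, and the other genes named in the text were not part of this check. No paired analysis was possible because each group is 1 pooled array. For the same reason no array could be left out, animal, array and group cannot be told apart, and signal near 4.82 on the chow array or 4.89 on the F0 array limits how low a level could be read.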

Other observations

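The share of genes 2-fold apart varied with signal, which depends on the probe as well as on the transcript. Ranked by mean log2 signal over both arrays and split into 4 equal parts, 14.1% of the dimmest genes differed at least 2-fold, 18.3% of the next, 13.3% of those after and 10.6% of the brightest. Among the dimmest 163 genes were higher and 217 lower, and in the brightest 168 and 118.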
